A study of Homo sapiens with 6 samples.

Results

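The genes described here are 9 targets and partners of p53, namely MDM2, MDM4, XPC, AEN, DDB2, ZMAT3, TP53I3, TP53INP1 and PHLDA3. They were chosen by name, as Ensembl identifiers matched to GENCODE symbols, out of 58096 genes listed in the count files. Of the 9, 8 had reads and passed the filter on low counts. PHLDA3 had no read in any library. The libraries hold total RNA of ALL-SIL, a human leukaemia line of the T-cell lineage (T-ALL) known for a rearranged TLX1 gene and the fused kinase NUP214-ABL1. Of 6 libraries, 3 came from cells given JQ1 at 1 µM for 24 h and 3 from cells labelled DMSO, the solvent. JQ1 displaces BET bromodomain proteins from acetylated chromatin. All libraries come from 1 line, the treatment text of the controls repeats that of the treated cells, and nothing says whether replicates were separate cultures, so p-values measure only the spread between these libraries.

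p53 is a transcription factor that cells stabilise after DNA damage, oncogene activity or disturbed ribosome assembly. It switches on genes of cell-cycle arrest, DNA repair, metabolism and cell death, and also MDM2, whose product marks p53 for destruction and so closes a feedback loop. In leukaemia cells the pathway bears on whether a damaged cell stops, repairs its DNA or dies.

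Gene counts per library ran from 15925885 to 25293884. Levels are given as CPM, counts brought to a common library size scaled by TMM, with mean ± SD for n = 3 libraries. A log2 change is that of the JQ1 level relative to the DMSO level, with its standard error (SE). The T-lineage markers were present, at a summed level of 787 to 1083 CPM in JQ1 against 1449 to 1687 in DMSO. Of these 8 markers, 7 were called lower under JQ1 (adjusted p by edgeR under 0.05), where 20.6% of all tested genes were. CD2 was nearly absent, at no more than 1.86 CPM in any library. Of other cell types, the myeloid markers summed to at most 0.493 CPM in any library and the erythroid markers to at most 0.0393, with 4 of 5 erythroid genes at 0. The B-cell list reached 24.5 CPM in DMSO and 6.34 in JQ1, all but a little of it from CD79A and CD79B, while MS4A1 was at 0. The list of epithelial and fibroblast genes reached 10.7 CPM in DMSO and 3.43 in JQ1, carried by PDGFRB, with 3 of 9 markers at 0. The part of these differences in the results below was not tested.

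The 9 genes did not move together. XPC, DDB2 and TP53INP1 rose under JQ1, AEN fell, and MDM2, MDM4, ZMAT3 and TP53I3 did not pass the test. That is 3 higher and 1 lower of 8 tested, or 50% called, where 36.6% of all 13975 tested genes were called, 15.9% higher and 20.6% lower (edgeR's quasi-likelihood test, Benjamini-Hochberg adjusted p under 0.05). The 3 higher became 1 without JQ1 replicate 1, JQ1 replicate 3 or DMSO replicate 1, fits in which 1707 to 1793 of all tested genes were higher in place of 2227. The median log2 change of the 8 was 0.36, beside 0.00 over all tested genes. The groups did not overlap for 4 of 8, where 48.9% of all tested genes did so. The 9 genes were chosen with earlier results of these data known, so these shares and the median are a description only. In bulk RNA, fewer cells with a transcript and less of it per cell cannot be told apart.

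**Figure D1:**
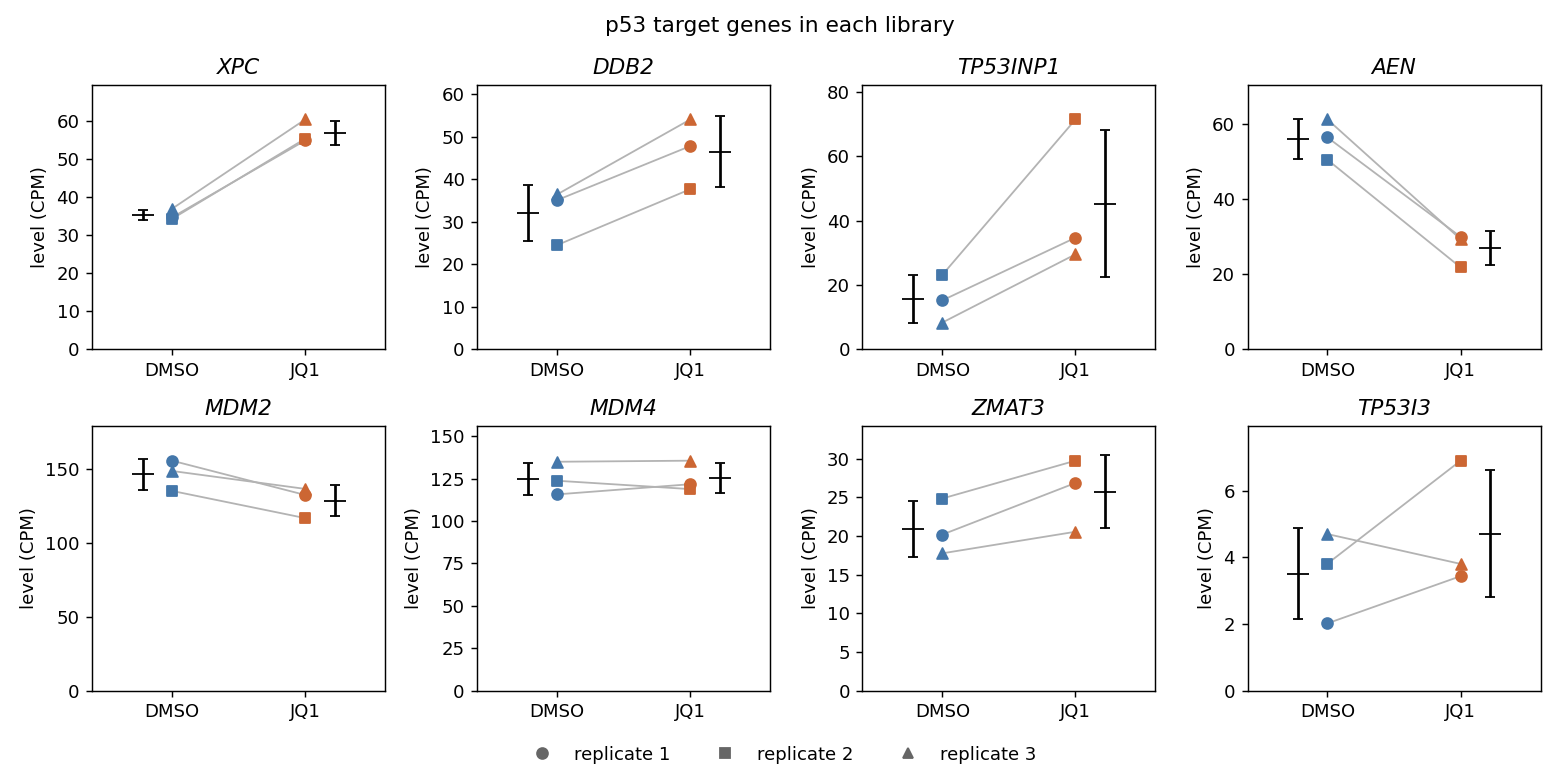
Level of each of the 8 detected p53 target genes in CPM (vertical axis, from 0) in the 3 DMSO and 3 JQ1 libraries; marker shapes give the replicate number, grey lines join libraries of the same number, and black marks are mean ± SD. XPC, DDB2, TP53INP1 and AEN separate the groups, and the lines of MDM4 and TP53I3 do not all run the same way.

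Libraries of the same replicate number deviated together across genes, so the number can be read as a pairing. The labels do not state this pairing. It was read from these same counts, and the p-values of a fit that uses it do not carry the uncertainty of that choice. A second fit that takes the number as a block is given beside a result where it changes the call. With the block 4 of the 8 were higher and 2 lower, where 27.3% and 29.6% of all tested genes were called. The sign of the change was the same in the 3 numbers for 6 of 8 genes, against 72.4% of all tested genes.

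p53 binds a pair of decamers of a known consensus, and for some targets the site lies near a start of transcription. The windows of 250 bases before to 50 after each annotated start (RefSeq, GRCh38.p14) were searched for it on both strands, with at least 18 of 20 letters matching, the core C and G of each decamer kept and at most 13 bases between decamers. Windows were held for 7 of the 9 genes, and 3 of them, MDM2, DDB2 and AEN, had a match. Over all genes with a window, 3.62% had one, and 0.0366% had one with all 20 letters, as DDB2 did. The best match of each of these 3 genes is shown, whatever the direction of its change. DDB2 rose, AEN fell and MDM2 passed the test only with the block. Any link between a match and a change was not tested. Capitals mark the decamers.
MDM2: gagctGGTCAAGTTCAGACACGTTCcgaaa
AEN: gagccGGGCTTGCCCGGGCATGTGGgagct
DDB2: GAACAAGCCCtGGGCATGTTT

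The MDM2 stretch lies at chr12:68808918-68808947 on the plus strand, before the internal start of the gene rather than before its first start; its match begins 94 bases ahead of the nearest internal start listed and has 18 of 20 letters. The AEN stretch, at chr15:88621301-88621330 on the plus strand, holds a match of 18 letters that begins 34 bases ahead of the start RefSeq lists, just inside the gene as GENCODE draws it. The best DDB2 match, at chr11:47214979-47214999 on the plus strand, lies just past a start listed inside the gene, with 1 base between its decamers. A match is a run of letters only, and no binding was measured here. MDM4, XPC, TP53I3 and ZMAT3 had no match in their windows. Among the other direct p53 target genes listed further on, 5 of 63 with a window had a match, among them FAS and FDXR.

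MDM2 and MDM4 are the pair that restrains p53. MDM2 (ENSG00000135679.22, chromosome 12) is the ubiquitin ligase that marks p53 for degradation, and is itself induced by p53. MDM2 stood at 133, 117 and 137 CPM in JQ1 replicates 1, 2 and 3, and at 156, 135 and 149 CPM in DMSO replicates 1, 2 and 3. The groups overlapped by a small margin, since the highest JQ1 library lay just above the lowest DMSO library, but within each number the JQ1 library was the lower one. The log2 change was -0.19 ± 0.10 (adjusted p by edgeR = 0.15). With the replicate block MDM2 was called lower, at -0.19 ± 0.06 (adjusted p by edgeR = 0.0082), a call that rests on reading the numbers as pairs. Genes of both strands overlap MDM2, and without regard to strand its change was -0.21 (adjusted p by edgeR = 0.11).

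MDM4 (ENSG00000198625.12, chromosome 1, 204516379 to 204558120), a relative of MDM2 that masks the activation domain of p53, stood at 122, 119 and 136 CPM in JQ1 replicates 1, 2 and 3. In DMSO replicates 1, 2 and 3 it stood at 116, 124 and 135 CPM. The values of both groups covered nearly the same range. The log2 change was 0.01 ± 0.09 (adjusted p by edgeR = 0.97), with -0.06 when library size was the only scaling, and the block left it uncalled (adjusted p by edgeR = 0.93).

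Levels were also divided by exon length, the merged length of all exons annotated for a gene. That is not the length of an expressed transcript, so the order of genes is approximate. On this scale the DMSO levels of MDM4 (11.3 ± 0.877 CPM per kilobase, n = 3) and MDM2 (11.04 ± 0.784) were the highest of the 9, and their ranges overlapped each other. AEN (9.33 ± 0.895), XPC (7.36 ± 0.299) and DDB2 (6.53 ± 1.33) followed, with the ranges of MDM2 and AEN touching, those of AEN and XPC apart and those of XPC and DDB2 overlapping. TP53INP1 (2.74 ± 1.305), ZMAT3 (2.17 ± 0.374) and TP53I3 (1.52 ± 0.590) were lower, with overlapping neighbours, and PHLDA3 was at 0. Under JQ1 XPC reached 11.9 ± 0.64 CPM per kilobase, in the range of MDM4 (11.4 ± 0.81), and AEN stood at 4.50 ± 0.75.

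XPC and DDB2 act at the first step of nucleotide excision repair. XPC (ENSG00000154767.14, chromosome 3, 14145147 to 14178783) recognises helix distortions in the global genome. XPC stood at 54.9, 55.3 and 60.4 CPM in JQ1 replicates 1, 2 and 3, and at 34.7, 34.3 and 36.9 CPM in DMSO replicates 1, 2 and 3. Every JQ1 library lay well above every DMSO library, and the libraries within a group were close together. XPC rose 1.61-fold, from 35.3 ± 1.43 to 56.9 ± 3.06 CPM (log2 change 0.69 ± 0.09, adjusted p by edgeR = 0.00026), and leaving out any 1 library gave 0.64 to 0.72. XPC overlaps genes on the other strand, among them LSM3, and without regard to strand its change was 0.65 (adjusted p by edgeR = 0.00037).

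DDB2 (ENSG00000134574.11, chromosome 11, 47214465 to 47239240) is the subunit of the damaged-DNA binding complex that finds ultraviolet lesions and hands them to XPC. DDB2 stood at 47.8, 37.6 and 54.0 CPM in JQ1 replicates 1, 2 and 3, and at 35.1, 24.5 and 36.4 CPM in DMSO replicates 1, 2 and 3. The groups did not overlap, though JQ1 replicate 2 lay just above the highest DMSO library, and number 2 was the lowest in both groups. DDB2 rose 1.45-fold, from 32.0 ± 6.52 to 46.5 ± 8.26 CPM (log2 change 0.54 ± 0.17, adjusted p by edgeR = 0.035). The call was lost when JQ1 replicate 1 was left out (0.52, adjusted p by edgeR = 0.091), as it was without JQ1 replicate 3 (0.42, 0.11). On the control side it was lost without DMSO replicate 1 (0.61, adjusted p by edgeR = 0.053) and without DMSO replicate 2 (0.38, 0.076). It was also lost when library size alone was the scaling (0.47, 0.068). Within numbers 1, 2 and 3 the log2 ratio was 0.45, 0.62 and 0.57, and with the block the adjusted p by edgeR was 1.2e-07.

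TP53INP1 had the largest change of the 8 and the widest spread. TP53INP1 (ENSG00000164938.13, chromosome 8, 94925972 to 94949411) encodes a stress protein that aids p53 phosphorylation and autophagy. TP53INP1 stood at 34.7, 71.4 and 29.5 CPM in JQ1 replicates 1, 2 and 3, and at 15.2, 23.1 and 8.34 CPM in DMSO replicates 1, 2 and 3. Number 2 was the highest and number 3 the lowest in both groups, and the lowest JQ1 library was above the highest DMSO library. TP53INP1 rose 2.91-fold, from 15.6 ± 7.41 to 45.2 ± 22.8 CPM (log2 change 1.54 ± 0.47, adjusted p by edgeR = 0.044).

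That call of TP53INP1 was close to the threshold. It was lost when any 1 JQ1 library was left out, with 1.71 for replicate 1 (adjusted p by edgeR = 0.085), 1.05 for replicate 2 (0.095) and 1.77 for replicate 3 (0.052). It was also lost without DMSO replicate 1 (1.53, adjusted p by edgeR = 0.12), without DMSO replicate 3 (1.24, 0.084) and with no filter on low counts (1.53, 0.20). The log2 ratio within numbers 1, 2 and 3 was 1.19, 1.63 and 1.82, and with the block the SE was 0.10 (adjusted p by edgeR = 1.1e-11). The whole gene lies within NDUFAF6 of the other strand, and 75 to 193 reads per library fell on that strand. Counted without regard to strand, the TP53INP1 change was 1.19 (adjusted p by edgeR = 0.053).

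AEN went the other way. AEN (ENSG00000181026.14, chromosome 15, 88621296 to 88632282) encodes a nuclease that enhances apoptosis after DNA damage. AEN stood at 30.0, 21.9 and 29.4 CPM in JQ1 replicates 1, 2 and 3, and at 56.5, 50.6 and 61.3 CPM in DMSO replicates 1, 2 and 3. No JQ1 library came near the DMSO range. AEN fell 2.07-fold, from 56.2 ± 5.39 to 27.1 ± 4.54 CPM (log2 change -1.05 ± 0.13, adjusted p by edgeR = 0.00023), and the change ran from -1.13 to -0.92 when any 1 library was left out.

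**Figure D2:**
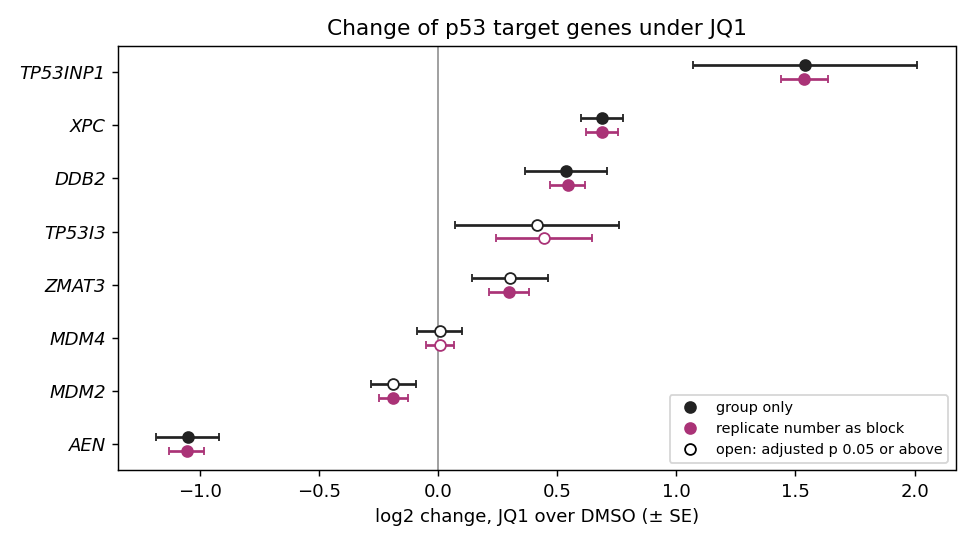
Log2 change of JQ1 over DMSO (horizontal axis) ± SE for the 8 tested genes, without (black) and with (purple) the replicate number as a block; open circles have an adjusted p of 0.05 or above. The block shortens the error of TP53INP1 from 0.47 to 0.10 and fills the circles of MDM2 and ZMAT3, while the estimates hardly move.

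ZMAT3 and TP53I3 had higher means under JQ1 without passing the test. ZMAT3 (ENSG00000172667.10, chromosome 3, 179017223 to 179072279) encodes a zinc-finger protein that binds RNA and affects splicing and transcript stability. ZMAT3 stood at 26.9, 29.8 and 20.6 CPM in JQ1 replicates 1, 2 and 3, and at 20.2, 24.9 and 17.8 CPM in DMSO replicates 1, 2 and 3. The groups overlapped, but in each number the JQ1 library was the higher one. The log2 change was 0.30 ± 0.16 (adjusted p by edgeR = 0.17), and with the block ZMAT3 was called higher at 0.30 ± 0.08 (adjusted p by edgeR = 0.0035).

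TP53I3 (ENSG00000115129.13, chromosome 2, 24077433 to 24085861) encodes a quinone oxidoreductase linked to oxidative stress. TP53I3 was the least abundant of the detected genes, with 85, 147 and 59 reads in JQ1 replicates 1, 2 and 3 and 41, 97 and 124 reads in DMSO replicates 1, 2 and 3. JQ1 replicate 3 was below DMSO replicate 3 in CPM, so the direction differed between numbers. The TP53I3 log2 change was 0.41 ± 0.35 (adjusted p by edgeR = 0.38), from 0.03 without JQ1 replicate 2 to 0.68 without DMSO replicate 3. The whole gene overlaps FAM228B of the other strand.

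PHLDA3 (ENSG00000174307.6, chromosome 1, 201464383 to 201469237), whose product blocks AKT at the membrane, had 0 reads in each of the 6 libraries. A count of 0 allows up to 3 reads, which is 0.114 to 0.193 CPM in these libraries. This limit covers counting error only.

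The protein-coding genes whose profile over the 6 libraries was most like that of MDM2 were NUTF2, MRPL49, NUP155, GLUD1 and MRE11, out of 9039 compared. The measure was the distance between log2 profiles centred on their DMSO mean, which was 0.055 for NUTF2 and 0.073 for MRE11. Their log2 changes lay between -0.22 and -0.18. All 9039 genes compared were counted in the same 6 libraries as MDM2, so a shared library depth is not particular to these 5. None of the 5 passed the test (adjusted p by edgeR from 0.093 to 0.16). These 5 were picked for likeness to MDM2 in these same libraries. Changes and adjusted p-values near those of MDM2 therefore follow from the choice.

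Across the wider pathway genes moved in both directions. Of 109 other p53 genes in 6 lists, 82 were tested, and 19 rose and 19 fell. That is 46.3% called, against 36.6% of all tested genes, with a median log2 change of 0.05. With the block 32 were higher and 22 lower, where 27.3% and 29.6% of all tested genes were. Without DMSO replicate 2, 12 were higher, and the count over all tested genes went from 2227 to 1778. The lists were chosen with earlier results of these data known, so their share of called genes is a description only.

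**Figure D3:**
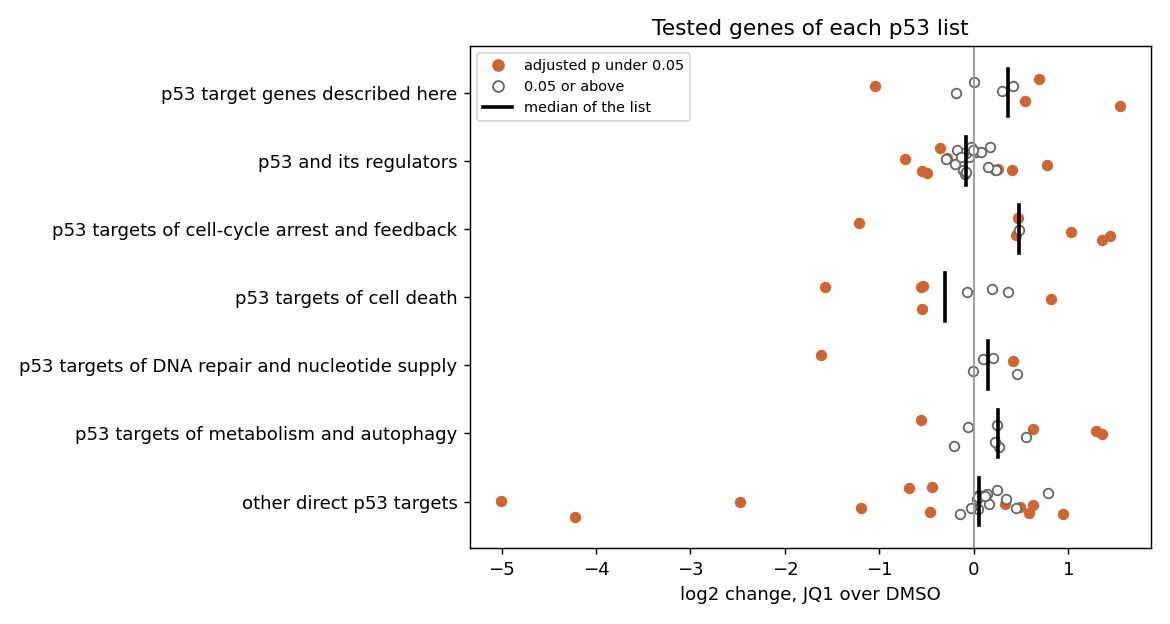
Log2 change of JQ1 over DMSO (horizontal axis) of every tested gene in the 9-gene set and 6 further p53 lists; filled circles have an adjusted p under 0.05, and the black bar is the median of the list. Called genes lie on both sides of 0 in each list.

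In the list of p53 regulators, 4 of 26 tested genes rose, 5 fell and 17 did not pass the test. That is 34.6% called, close to the 36.6% of all tested genes. SIRT1, a deacetylase that acts on p53, rose from 45.9 ± 5.08 to 78.2 ± 7.16 CPM (log2 change 0.77 ± 0.11, adjusted p by edgeR = 0.00041). DAXX, a histone chaperone that binds MDM2, fell by 0.50 ± 0.08 on the log2 scale, and TP53BP1, which gathers at DNA breaks, fell by 0.55 ± 0.14. KAT5, an acetyltransferase of p53, fell by 0.36 ± 0.08, a call that was lost when strand was ignored (-0.17, adjusted p by edgeR = 0.23). The block called 5 higher and 8 lower, where 27.3% and 29.6% of all tested genes were. The p53 relatives TP63 and TP73, CDKN2A, whose ARF product binds MDM2, and TP53BP2 and PPP1R13B were not tested for lack of reads, and TP63, CDKN2A, TP53BP2 and PPP1R13B had none at all.

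CDKN1A, the gene of p21 and the best known p53 target of arrest, was all but silent. It had 2, 3 and 1 reads in JQ1 replicates 1, 2 and 3 and 0, 3 and 1 reads in DMSO replicates 1, 2 and 3, so no change can be read from it. Among the other arrest and feedback targets 5 of 7 tested genes rose and 1 fell, where 15.9% of all tested genes were higher and 20.6% lower. With the block 6 of this list were higher and 1 lower, where 27.3% and 29.6% of all tested genes were. GADD45A, a growth arrest and stress gene, rose 2.56-fold from 5.47 ± 1.32 to 13.9 ± 1.74 CPM (log2 change 1.35 ± 0.19, adjusted p by edgeR = 0.0005). SERTAD1, a CDK4 partner, rose by 1.44 ± 0.24, and PPM1D, the phosphatase that turns p53 signalling off, rose by 0.46 ± 0.10. E2F7 rose by 0.44 ± 0.15 with overlapping groups (adjusted p by edgeR = 0.040), and BTG2 rose by 1.03 ± 0.32 (adjusted p by edgeR = 0.042). Both calls were close to the threshold, and that of BTG2 was lost when strand was ignored (adjusted p by edgeR = 0.072). PLK3, a stress kinase, fell by 1.22 ± 0.17. CCNG1, cyclin G1, had a log2 change of 0.48 ± 0.17 (adjusted p by edgeR = 0.059), and was called higher with the block (adjusted p by edgeR = 5.5e-08) and by DESeq2 (adjusted p = 0.02), 2 of the 6 alternatives of 15 that called it.

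Among the tested targets of cell death 1 of 8 rose and 4 fell (62.5% called), with a median log2 change of -0.31. Over all tested genes 36.6% were called, 15.9% higher and 20.6% lower, and the median was 0.00. With the block 2 of this list were higher and 4 lower, where 27.3% and 29.6% of all tested genes were. FAS, the death receptor, fell 2.98-fold from 4.33 ± 0.87 to 1.46 ± 0.09 CPM (log2 change -1.58 ± 0.23, adjusted p by edgeR = 0.00054). BID, which carries the receptor signal to mitochondria, fell by 0.54 ± 0.08, and EI24 fell by 0.55 ± 0.10. TRIAP1 fell by 0.56 ± 0.11 (adjusted p by edgeR = 0.0035). PMAIP1 had a log2 change of 0.36 ± 0.16 (adjusted p by edgeR = 0.10) and was called higher with the block (adjusted p by edgeR = 7.7e-05). The list was not split into genes that favour and genes that restrain cell death. APAF1, the scaffold of the apoptosome, rose 1.75-fold from 41.0 ± 4.28 to 71.9 ± 5.44 CPM (log2 change 0.81 ± 0.10, adjusted p by edgeR = 0.00024). BAX, which permeabilises mitochondria, had a log2 change of -0.07 ± 0.12 (adjusted p by edgeR = 0.66). BBC3, the gene of PUMA, had 16 reads over the JQ1 libraries and 12 over the DMSO libraries and was not tested. TNFRSF10A, TNFRSF10B, PERP and TP53AIP1 were also left out for lack of reads.

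Of 6 targets of DNA repair and nucleotide supply, 1 rose and 1 fell (33.3% called, beside 36.6% of all tested genes). POLH, a polymerase that copies past ultraviolet lesions, rose by 0.41 ± 0.13, with overlapping groups (adjusted p by edgeR = 0.037). POLH lost that call in 4 of 6 fits with 1 library left out, those without replicates 1 or 2 of JQ1 and 2 or 3 of DMSO (0.29 to 0.45, adjusted p by edgeR from 0.052 to 0.12). It also lost it when strand was ignored (adjusted p by edgeR = 0.051) and when library size alone was the scaling (adjusted p by edgeR = 0.055). APOBEC3C, a cytidine deaminase, fell 3.08-fold from 32.8 ± 2.37 to 10.6 ± 1.25 CPM (log2 change -1.62 ± 0.12, adjusted p by edgeR = 1.5e-05). PCNA, the sliding clamp of replication, had a log2 change of 0.46 ± 0.19 (adjusted p by edgeR = 0.085), and FANCC, of the Fanconi core complex, had one of 0.20 ± 0.11 (adjusted p by edgeR = 0.17). DESeq2 called PCNA higher (adjusted p = 0.03), as did 5 of the 15 alternatives in all. With the block both were called higher (adjusted p by edgeR = 6.9e-07 for PCNA and 0.032 for FANCC). In that fit 3 of the 6 were higher and 1 lower, where 27.3% and 29.6% of all tested genes were.

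Among targets of metabolism and autophagy 3 of 10 tested genes rose and 1 fell, or 40% called, beside 36.6% of all tested genes. SESN1 and SESN2 encode sestrins, which restrain mTORC1. SESN1 rose 2.45-fold from 14.5 ± 0.28 to 35.5 ± 2.70 CPM (log2 change 1.29 ± 0.10, adjusted p by edgeR = 2.0e-05), and SESN2 rose by 1.36 ± 0.15. ALDH4A1, of proline breakdown, rose by 0.63 ± 0.17, a call lost without DMSO replicate 1 (adjusted p by edgeR = 0.062) or DMSO replicate 2 (0.062). CES2, a carboxylesterase, fell by 0.56 ± 0.12. With the block 6 of the list were higher and 1 lower, where 27.3% and 29.6% of all tested genes were.

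Of 25 other direct targets 5 rose and 7 fell (48% called, beside 36.6% of all tested genes). With the block 10 were higher and 7 lower, where 27.3% and 29.6% of all tested genes were. FBXW7, the ubiquitin ligase subunit that degrades MYC and NOTCH1, rose from 86.0 ± 3.38 to 129 ± 2.73 CPM (log2 change 0.59 ± 0.08, adjusted p by edgeR = 0.00035). PLCL2 fell by 0.69 ± 0.10. The cytokine gene LIF had 3 reads over the JQ1 libraries and 130 over the DMSO libraries. The ratio of DMSO to JQ1 was 38.6, with an exact 95% interval of 12.9 to 190 for counting error only. The DMSO libraries differed, with 12, 49 and 69 LIF reads in replicates 1, 2 and 3. With the spread between libraries taken in, the LIF log2 change was -5.01 ± 0.75 (adjusted p by edgeR = 0.0007). TLR3, a sensor of double-stranded RNA, had 2 and 51 reads, a ratio of 22.7 (5.98 to 193). The TLR3 log2 change was -4.22 ± 0.66 (adjusted p by edgeR = 0.00081). RPS27L, a ribosomal protein relative induced by p53 in many cell types, had a log2 change of 0.12 ± 0.10 (adjusted p by edgeR = 0.38).

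**Figure D4:**
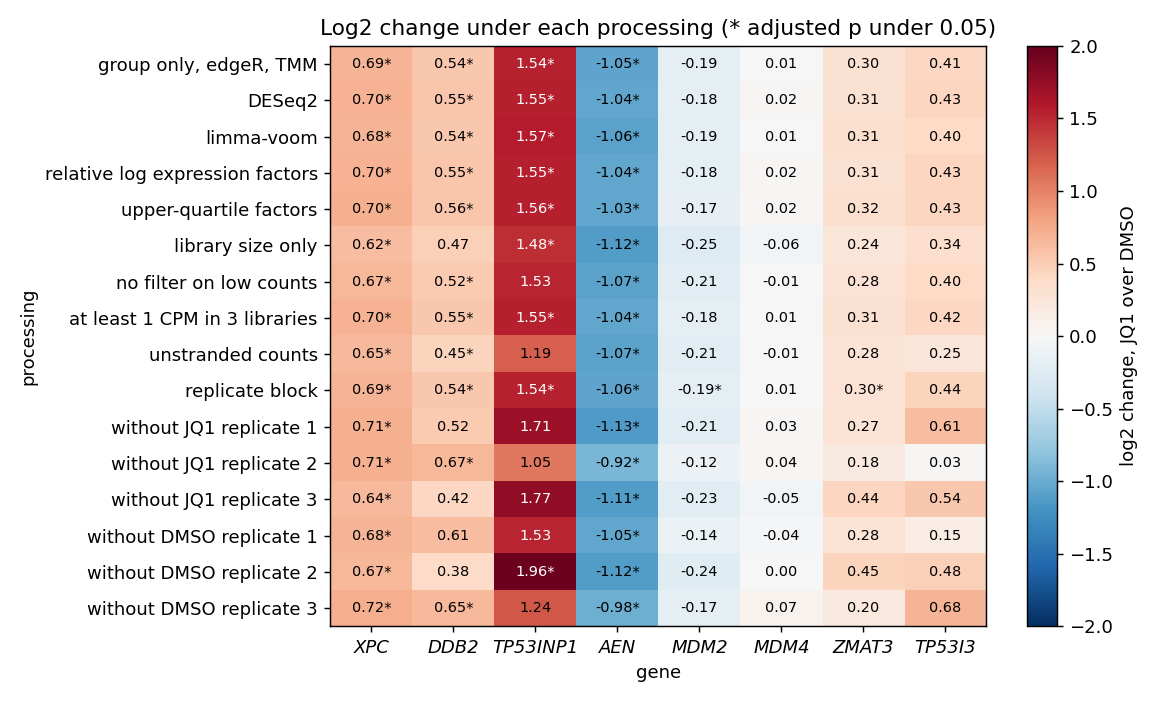
Log2 change of JQ1 over DMSO for the 8 tested genes (columns) under each processing (rows), with the value in each cell, colour on a scale from -2 to 2 and a star where the adjusted p is under 0.05. XPC and AEN carry a star in every row, DDB2 and TP53INP1 in some, and MDM4 and TP53I3 in none.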

How the data were processed

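The data are 6 RNA libraries of ALL-SIL cells, 3 titled JQ1 and 3 titled DMSO, grouped by title. The files the authors deposited hold raw counts of reads per gene, once ignoring strand and once for each strand. Reads were placed on GRCh38 (per the submitters' processing notes) and the kit kept strand, per the labels' protocols. No source used here names the aligner or the annotation release. The column used held 20.9 to 22.6 times the reads of the opposite strand. The 4 lines of read classes were left out of totals; 1.48% to 1.99% of reads were unmapped, 14.1% to 15.7% had several places, 18.8% to 26.1% no gene and 3.38% to 3.88% more than 1 gene. Positions come from GENCODE release 29 where the gene version matched.

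Genes were filtered with filterByExpr of edgeR (minimum count 10, minimum total 15), scaled by TMM and tested by edgeR 4.0.16 under R 4.3.3 with its robust quasi-likelihood test on the group, and p-values were adjusted by Benjamini-Hochberg over 13975 genes. The SE was taken from the log2 change and the square root of F. Same-numbered libraries deviated together from their group means (correlations 0.33, 0.43 and 0.37 across genes), so the number was also fitted as a block. This pairing comes from the data, not the labels. The other alternatives were DESeq2 1.42.0, voom of limma 3.58.1, other scalings and filters, unstranded counts and fits without 1 library. The procedure was tested on simulated data. Members and lists were chosen with earlier results of these data known. Named genes were the 9 members, 8 fixed pathway genes (1 of them is not reported here), up to 4 genes per list with the smallest p, the most abundant marker of each other cell type, and the 5 protein-coding genes of at least 5 CPM nearest to MDM2 (on log2 of CPM + 0.5). Members of a list with few or no reads, and the markers described by their level, are named besides. TRIAP1, PMAIP1, E2F7 and BTG2 are named to show more of their lists.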

Additional observations from a re-analysis of the deposited data

How the results depend on the processing

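With the replicate block 2 of the 9 genes were lower in place of 1, and 32 other p53 genes were higher in place of 19. Over all tested genes that fit called 3813 higher in place of 2227 and 4133 lower in place of 2883. Leaving out 1 library gave 1 to 2 of the 9 genes higher in place of 3 (1 without JQ1 replicate 1, JQ1 replicate 3 or DMSO replicate 1), and 12 to 15 other p53 genes higher in place of 19; over all tested genes 1707 to 1901 were higher in place of 2227. XPC and AEN kept their direction and call under all 15 alternatives, with log2 changes from 0.62 to 0.72 and from -1.13 to -0.92. DDB2 and TP53INP1 kept their direction under all 15 and lost the call under 5 and 7; the cause was not tested. Of the 8 tested genes, the block changed the call of MDM2 and ZMAT3 only, and no other alternative called either. MDM4 and TP53I3 were called under none of the 15, and the MDM4 estimate lay on both sides of 0 (-0.06 to 0.07). Library size as the only scaling moved the median over all genes by -0.06. The TP53I3 estimate ranged from 0.03 to 0.68 under the 15 alternatives. This gene had 291 reads over the JQ1 libraries and 262 over the DMSO libraries. The cause of its range was not tested.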
